A study of Mus musculus with 5 samples.

Results

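Pyroptosis and necroptosis are forms of cell death in which the plasma membrane is breached from within. The 10 genes described here, chosen by name, encode parts of both pathways: the inflammasome sensor Nlrp3 and its adaptor Pycard, the caspases Casp1, Casp4 and Casp8, the gasdermins Gsdmd and Gsdme, and the necroptosis genes Zbp1, Ripk3 and Mlkl. They are 10 of the 35478 genes listed in the count tables, and all 10 passed the filter on low counts that left 16394 genes to test. RNA was from kidneys of 2 Prdm16fl/fl mice (numbered 1 and 3) and 3 Ksp-Cre/Prdm16fl/fl mice (numbered 1, 2 and 3), 1 library per mouse, taken 11 days after unilateral ischemia-reperfusion injury (UIRI). All were males aged 7 to 8 weeks at use, labelled as strain C57BL/6J;129, and all carried the floxed Prdm16 allele. The left renal pedicle was clamped for 35 minutes on a bath at 38.5°C, and the right kidney was removed on day 10. Ksp-Cre drives Cre from the kidney-specific cadherin promoter, so the deletion was aimed at tubular epithelium while other cells of the kidney kept Prdm16. The controls were littermates without Cre, and no uninjured kidney was sequenced in the data used here. The difference between the genotypes after UIRI was therefore the only comparison. The genotypes are also called control and knockout kidneys below. The comparison addresses how these genes stood when Cre was directed in tubules at Prdm16, which encodes a transcriptional regulator.

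In an inflammasome, a sensor such as NLRP3 recruits the adaptor ASC (the product of Pycard), which gathers and activates caspase-1. Caspase-1, and caspase-11 encoded by mouse Casp4, cleave gasdermin D, whose freed N-terminal part forms membrane pores through which interleukin-1β leaves the cell. In necroptosis, RIPK3 phosphorylates the pseudokinase MLKL, which then permeabilizes the membrane, and caspase-8 holds this route in check. ZBP1 senses Z-form nucleic acids and engages RIPK3. Several of these genes are induced by interferon or by inflammatory signals, and in the kidney they are found both in injured tubules and in infiltrating leukocytes. The activity of these proteins is set by cleavage, oligomerization and phosphorylation, which transcript counts do not measure.

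None of the 10 genes passed an adjusted p of 0.05 in edgeR's quasi-likelihood test. Only Nlrp3 (1 of 10) had an unadjusted p under 0.05, against 18.8% of all genes tested, and DESeq2 likewise called 0 members and gave 1 with an unadjusted p under 0.05. Over all genes, 160 (0.976%) were called, 17 higher (0.104%) and 143 lower (0.872%) in Ksp-Cre/Prdm16fl/fl kidneys. The called genes were 10.6% higher ones here, 25.5% with DESeq2 and 27.5% when scaled by library size. The log2 fold change was above 0 for 9 members, all but Pycard, and for 54.0% of all genes. The median was 0.18 over the members and 0.0377 over all genes. All 3 Ksp-Cre/Prdm16fl/fl mice lay above both Prdm16fl/fl mice for Nlrp3, Ripk3 and Mlkl, that is for 3 of 10 members against 20.3% of all genes, and below both for 0 members against 21.3%. The groups overlapped for the other 7. For Gsdmd, Pycard, Casp4 and Zbp1, knockout mouse 3 was the lowest of the 5 mice. The share of all genes with mouse 3 lowest was not counted, so this order is not shown to be particular to these genes. The p-values set the difference between the genotypes against the spread among mice within them, which edgeR estimates in part from all genes tested. In tissue RNA, fewer cells of a type and less RNA per cell cannot be told apart.

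**Figure D1:**
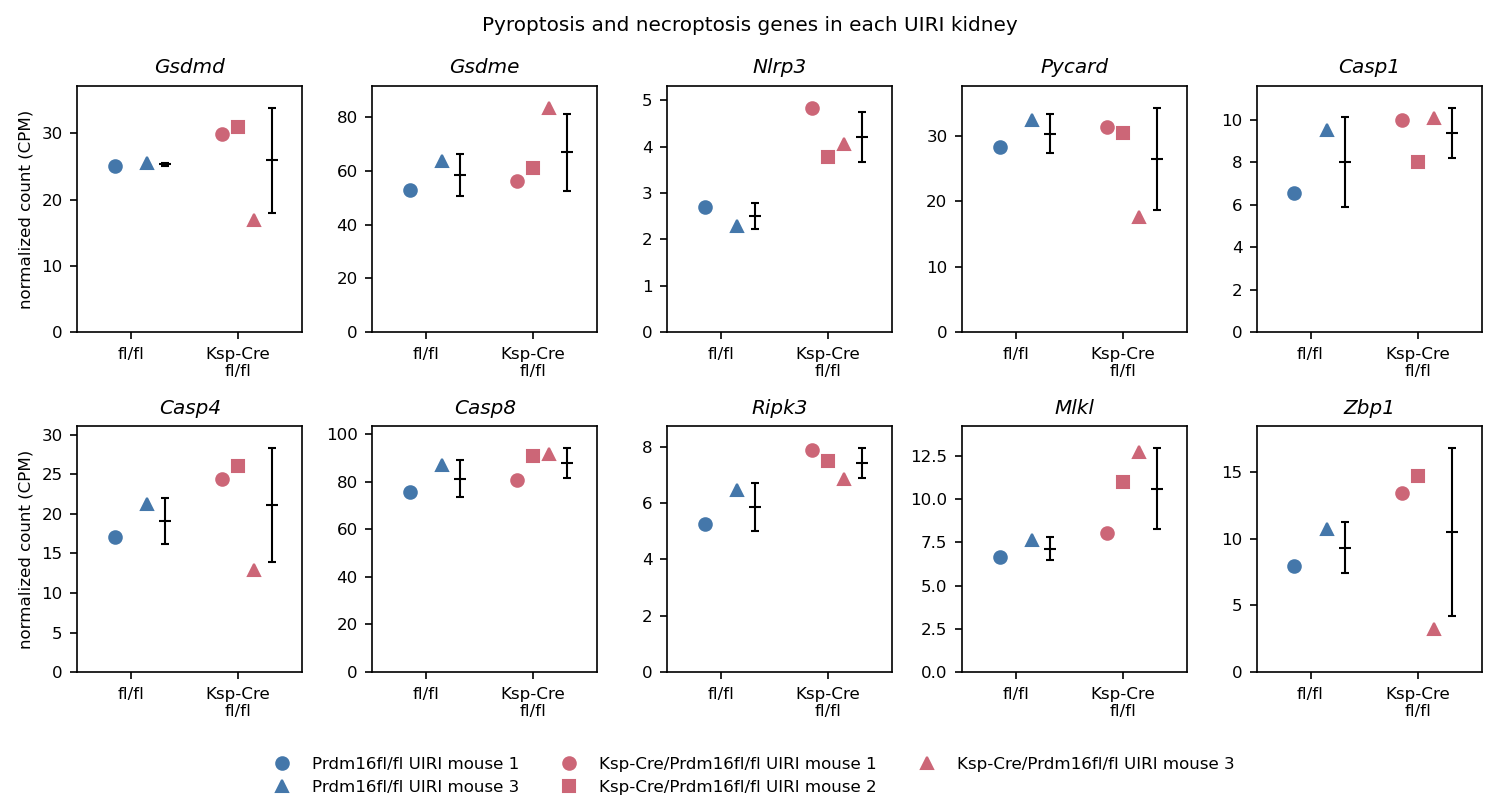
Normalized counts (CPM, linear axis from 0) of the 10 genes in each UIRI kidney, with the mean and SD of each genotype in black (n = 2 and n = 3 mice). The Ksp-Cre/Prdm16fl/fl mice lie above both Prdm16fl/fl mice for Nlrp3, Ripk3 and Mlkl, and mouse 3 (red triangle) is the lowest of the 5 for Gsdmd, Pycard, Casp4 and Zbp1.

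Facts on the libraries bear on what follows. Total counts ran from 14939040 to 16425161. Prdm16 itself had 25.3 and 20 CPM (TMM-scaled counts per 1000000) in Prdm16fl/fl mice 1 and 3, and 17.1, 17.0 and 18.0 CPM in knockout mice 1, 2 and 3 (log2 fold change -0.38 ± 0.15 SE, adjusted p = 0.259 in edgeR's test). Reads from outside the deleted part and from cells without Cre are in this count, so it is a weak check of the deletion. The labelled tissue was borne out by tubular genes in all 5 libraries: 12 of 12 proximal tubule markers were tested, and their sums were 23100 and 29400 CPM against 7550 to 12000 CPM. Ksp-Cre/Prdm16fl/fl mouse 3 stood apart: its log2 CPM correlated with those of the other libraries at a Pearson r across genes of 0.943 to 0.96, whereas mice 1 and 2 of that genotype had 0.991 and the Prdm16fl/fl mice 0.989. Genes are not independent replicates, and these r values only describe the libraries. Without mouse 3, edgeR called 3059 of the 16394 genes (18.7%), and 1 of the 10 members, Zbp1. Each member is therefore given with and without that mouse.

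Nlrp3 encodes the sensor that responds to potassium efflux and other signs of cell stress. It had 2.70 and 2.30 CPM in control mice 1 and 3, and 4.83, 3.78 and 4.06 CPM in knockout mice 1, 2 and 3. The groups did not overlap, and the lowest Ksp-Cre/Prdm16fl/fl value stood above the highest Prdm16fl/fl value. The log2 fold change was 0.76 ± 0.27 (SE), or 1.69-fold with a 95% interval of 1.07 to 2.66, with an unadjusted p of 0.030 and an adjusted p of 0.213 in edgeR's test. It kept a log2 fold change between 0.65 and 0.88 when any 1 mouse was left out, and without mouse 3 it was 0.79 (adjusted p = 0.0682). These values rest on few reads. The raw counts were 40 and 32 against 85, 64 and 61, and the exact 95% Poisson interval, which covers counting error only, was 28.6 to 54.5 and 21.9 to 45.2 for control mice 1 and 3, and 67.9 to 105, 49.3 to 81.7 and 46.7 to 78.4 for knockout mice 1, 2 and 3. The interval of control mouse 1 overlapped those of knockout mice 2 and 3. The gene is listed on the plus strand of chromosome 11 from 59432395 to 59457781.

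Pycard, which encodes the adaptor ASC, gave another picture. It had 28.2 and 32.4 CPM in control kidneys and 31.3, 30.4 and 17.5 CPM in knockout mice 1, 2 and 3. Mice 1 and 2 lay between the Prdm16fl/fl mice, and mouse 3 below both. Its fitted log2 fold change was -0.20 ± 0.27 (0.873-fold, 95% interval 0.557 to 1.37, adjusted p = 0.732 in edgeR's test), and without mouse 3 it was 0.03. Sensor and adaptor thus had opposite signs in the fit of all 5 mice, while neither passed the test.

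Casp1 and Casp4 are neighbours on the plus strand of chromosome 9, where the files list Casp1 from 5298517 to 5307281 and Casp4 from 5308816 to 5336791, with 1534 bases between them. The caspase-1 gene had 6.54 and 9.54 CPM in control kidneys and 10.0, 8.03 and 10.1 CPM in knockout mice. The Prdm16fl/fl mice spanned more than the Ksp-Cre/Prdm16fl/fl mice did, and the groups overlapped. The fit gave a log2 fold change of 0.22 ± 0.24 (1.17-fold, 95% interval 0.774 to 1.76, adjusted p = 0.659 in edgeR's test), and 0.18 without mouse 3. Casp4, the cytosolic receptor for bacterial lipopolysaccharide that cleaves gasdermin D directly, had 17.1 and 21.2 CPM against 24.4, 26.1 and 12.9 CPM. Mice 1 and 2 lay above both Prdm16fl/fl mice and mouse 3 below both. The log2 fold change was 0.15 ± 0.32 (adjusted p = 0.834) with mouse 3 and 0.41 (adjusted p = 0.0719) without it, both from edgeR's test. In mouse 3, relative to the Prdm16fl/fl mean, Casp4 stood at -0.55 and Casp1 at 0.34 on the log2 scale. Casp12, a further member of this gene cluster, was chosen for display after its values were seen. It had 16.4 and 21.0 CPM against 22.8, 24.9 and 11.7 CPM, the same order of mice as Casp4.

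The stretch from 250 to 51 bases before each RefSeq start is shown for Casp1 and Casp4, picked after their values in mouse 3 were seen. The sequences are from build GRCm38.p6, plus strand, chr9:5298267-5298466 for Casp1 and chr9:5308599-5308798 for Casp4. Capitals mark matches on either strand to the NF-kB consensus, a 10-base motif bound by the inflammatory transcription factor of that name.
Casp1: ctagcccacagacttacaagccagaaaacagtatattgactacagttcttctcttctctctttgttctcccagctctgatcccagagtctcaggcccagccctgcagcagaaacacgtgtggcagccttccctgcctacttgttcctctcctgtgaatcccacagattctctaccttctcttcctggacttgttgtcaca
Casp4: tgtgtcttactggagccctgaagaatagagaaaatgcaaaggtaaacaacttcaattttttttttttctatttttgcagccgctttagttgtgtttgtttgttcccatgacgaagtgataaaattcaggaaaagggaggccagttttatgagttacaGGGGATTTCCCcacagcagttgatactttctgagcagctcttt
The Casp4 window held 2 matches that overlap each other, together from 93 to 83 bases before the start, and the Casp1 window held 0. Promoter windows were at hand for 8 of the 10 members, all but Gsdmd and Zbp1. These 8 had 10 windows together, and a member was counted if any of its windows held the motif. Casp4 and Nlrp3 held it. The motif was in 5.71% of the 32851 windows in the RefSeq table, a share of single windows and not of genes. An interferon response core, searched as GAAANNGAAA on both strands, was in any window of 0 of the 8 members and in 2.4% of all single windows. The promoters of Zbp1 and Gsdmd were not searched. Of the 2 members with the NF-kB motif, Nlrp3 stood at 0.68 and Casp4 at -0.55 in mouse 3, on the log2 scale relative to the Prdm16fl/fl mean. A match is a description of letters only, and nothing about binding was measured. Any part of the motif in these values was not tested.

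Casp8, which initiates extrinsic apoptosis and restrains necroptosis, varied least. It had 75.7 and 87.0 CPM in control kidneys and 80.6, 90.9 and 91.7 CPM in knockout mice, with overlapping groups. Its fitted log2 fold change was 0.11 ± 0.12 (adjusted p = 0.676 in edgeR's test), and 0.08 without mouse 3. Its 95% interval, 0.874- to 1.33-fold, was the narrowest of the 10. It is not adjusted for the number of genes, rests on 2 against 3 mice and does not exclude a larger difference. The log2 fold change ran from 0.01 to 0.21 when any 1 mouse was left out. The gene lies at 58834398 to 58886662 on the plus strand of chromosome 1 in the files.

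The gasdermins, which form the pores, differed from each other. Gsdmd, the main substrate of caspase-1 and caspase-11 (plus strand of chromosome 15, 75733990 to 75739257), had 25.1 and 25.5 CPM in control kidneys and 29.9, 31.0 and 16.9 CPM in knockout mice 1, 2 and 3. The Prdm16fl/fl mice were nearly equal, mice 1 and 2 of the other genotype lay above them, and mouse 3 lay below them. The fit gave a log2 fold change of 0.03 ± 0.27 (1.02-fold, 95% interval 0.646 to 1.62, adjusted p = 0.960 in edgeR's test). It was 0.27 without mouse 3 (adjusted p = 0.121) and -0.12 without mouse 2. Gsdme, which is cleaved by caspase-3 (minus strand of chromosome 6, 50167013 to 50240837), had 52.9 and 63.9 CPM against 56.4, 61.1 and 83.4 CPM. Here mouse 3 was the highest of the 5 and the other 4 mice overlapped. The log2 fold change was 0.20 ± 0.20 (1.15-fold, 95% interval 0.818 to 1.61, adjusted p = 0.632), and 0.01 without mouse 3, from edgeR's test. No other gasdermin gene reached the filter: of 8 listed, 0 were tested, Gsdma2, Gsdma3 and Gsdmc were listed at 0 counts in all libraries, and the sum over the 8 was at most 2.87 CPM.

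The kinase gene Ripk3 (minus strand of chromosome 14, 56022452 to 56026314) had 5.26 and 6.46 CPM in control kidneys and 7.89, 7.50 and 6.86 CPM in knockout mice. The groups did not overlap, but the nearest values of the genotypes were close. Its fitted log2 fold change was 0.34 ± 0.21 (1.27-fold, 95% interval 0.883 to 1.82, adjusted p = 0.441 in edgeR's test), and 0.40 without mouse 3. Of its exon bases, 169 (8.6%) are shared with Gm32092 on the other strand, which had 2 to 18 counts, and whether counting used the strand is not given in the sources used here. None of the other members shared exon bases with another listed gene. Mlkl, the executioner of necroptosis (minus strand of chromosome 8, 112037879 to 112065081), had 6.67 and 7.61 CPM against 8.06, 11.0 and 12.7 CPM. The groups did not overlap, and Ksp-Cre/Prdm16fl/fl mouse 1 was close to the upper Prdm16fl/fl mouse. The fit gave a log2 fold change of 0.57 ± 0.25 (1.48-fold, 95% interval 0.970 to 2.26) with an unadjusted p of 0.0635 and an adjusted p of 0.296 in edgeR's test, and it lay between 0.42 and 0.73 when any 1 mouse was left out, 0.42 being the value without mouse 3.

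Zbp1, the nucleic acid sensor upstream of RIPK3 (minus strand of chromosome 2, 173048405 to 173060715), had the widest spread of the 10. It had 7.96 and 10.7 CPM in control kidneys and 13.4, 14.7 and 3.26 CPM in knockout mice 1, 2 and 3. Mice 1 and 2 lay above both Prdm16fl/fl mice, and mouse 3 was below both, at a log2 difference of -1.46 from their mean. The raw counts were 118 and 149 against 236, 249 and 49, so the low value did not come from a count near 0. The log2 fold change was 0.17 ± 0.60 (1.13-fold, 95% interval 0.412 to 3.07, adjusted p = 0.902 in edgeR's test). Without mouse 3 it was 0.60 with an adjusted p of 0.0465, and in that fit 18.7% of all genes were called. The order seen for Zbp1, with mice 1 and 2 above both Prdm16fl/fl mice and mouse 3 below both, was shared by Gsdmd and Casp4, which makes 3 of 10 members against 8.52% of all genes.

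**Figure D2:**
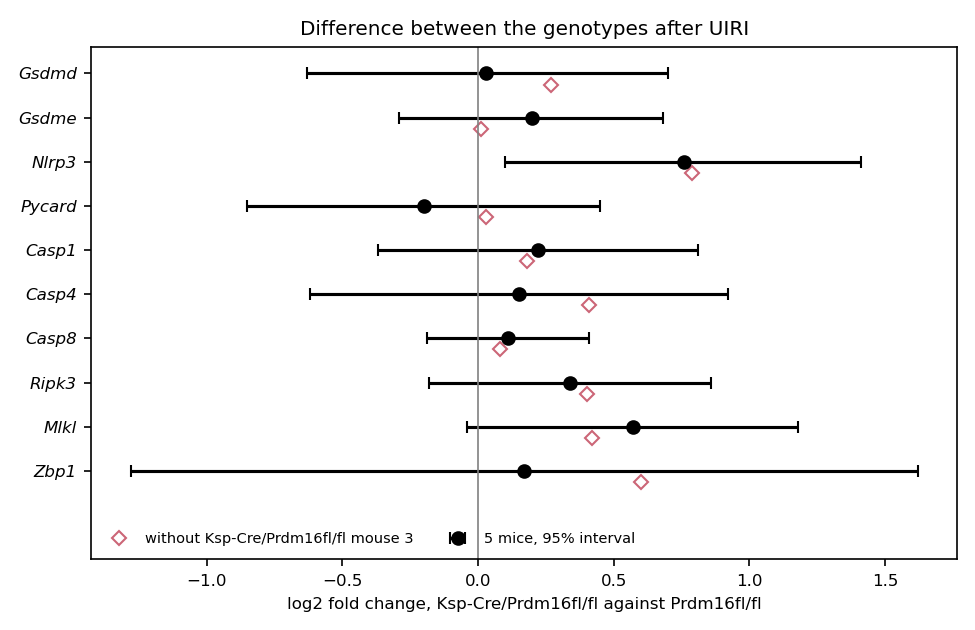
Log2 fold changes of the 10 genes between the genotypes after UIRI (black, all 5 mice, bars are 95% intervals from edgeR) and the same without Ksp-Cre/Prdm16fl/fl mouse 3 (open diamonds). Only the interval of Nlrp3 lies wholly above 0 before adjustment, and leaving out mouse 3 moves Zbp1 from 0.17 to 0.60.

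A part of the interferon-stimulated genes had the same order of mice. Of 22 names of interferon-stimulated genes, Mx1, Mx2 and Rigi were not among the genes listed, and the other 19 were all tested. The summed level of the 19 was 695 and 777 CPM in control kidneys, 1280 and 1360 CPM in knockout mice 1 and 2, and 604 CPM in mouse 3. Mice 1 and 2 were above both controls and mouse 3 below both for 12 of the 19, whereas all 3 knockout mice were above both controls for 5, such as Irf9 and Ifih1, picked after their values were seen. Irf9 had 54.5 and 54.9 CPM against 89.6, 85.2 and 65.1 CPM, and Ifih1 had 33.0 and 36.6 CPM against 53.6, 54.5 and 42.4 CPM. All 19 had a log2 fold change above 0 (54.0% of all genes did), with a median of 0.61, and with all 5 mice edgeR called 0 of them (5 at an unadjusted p under 0.05), as did DESeq2. Without mouse 3 the median was 0.80 and 17 of the 19 were called higher. Ifit1, an interferon-induced RNA-binding protein and the gene of that list with the largest log2 fold change (1.52, adjusted p = 0.303), had 9.44 and 10.8 CPM against 41.7, 37.9 and 7.60 CPM. In this gene mouse 3 was the lowest of the 5, as it was for Zbp1.

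Markers of leukocytes also differed between the mice. All 12 macrophage markers were tested, and they summed to 1100 and 1520 CPM against 1790, 1670 and 996 CPM. Much of this sum was Lyz2, with 464 and 716 CPM against 772, 699 and 229 CPM. Mouse 3 was below both controls for 5 of the 12. It was also below both for 11 of the 12 proximal tubule markers and for 0 of the 8 fibroblast markers. The share of all genes with mouse 3 below both controls was not counted. In edgeR's test 9 of the 12 macrophage markers were higher, 3 lower and 0 called, and DESeq2 called 1. The median log2 fold change was 0.26, and 0.43 without mouse 3, when 7 were called higher. Only 1 had an unadjusted p under 0.05 in edgeR's test. This was Cd14, highest in mouse 3, with 43.7 and 74.0 CPM against 92.2, 106 and 176 CPM. Adgre1, which encodes the macrophage surface protein F4/80, had 36.5 and 40.6 CPM against 51.7, 51 and 12.3 CPM, whereas Csf1r, the receptor of macrophage colony-stimulating factor, had 102 and 113 CPM against 149, 134 and 103 CPM. The 5 general leukocyte markers summed to 291 and 305 CPM against 364, 371 and 235 CPM. Ptprc, their defining gene, had 93.6 and 95 CPM against 109, 116 and 53.9 CPM. Mice 1 and 2 above both controls and mouse 3 below both was the order of 2 of the 5. By log2 fold change, 3 of the 5 were higher and 2 lower, with 0 called by edgeR or DESeq2. For Laptm5 all 3 knockout mice were above both controls, with 75.6 and 57.5 CPM against 99.5, 92.6 and 84.8 CPM. Of 8 neutrophil markers 5 were tested. Their list summed to 17.6 to 19.3 CPM against 20.6 to 35.1 CPM, with Mpo at 0 in all libraries and Ly6g at no more than 0.0674 CPM. edgeR called 0 of the 5, with 2 at an unadjusted p under 0.05, and DESeq2 called 1 higher, the chemokine receptor gene Cxcr2. Cxcr2, named after its values were seen, had 0.607 and 0.431 CPM against 2.67, 2.30 and 2.20 CPM (log2 fold change 2.18, adjusted p = 0.0543 in edgeR's test). S100a8, a defining marker, had 1.69 and 0.646 CPM against 2.50, 3.84 and 2.67 CPM (1.35, adjusted p = 0.211), so that for both genes the groups did not overlap. They did overlap for the other tested markers, S100a9, Csf3r and Retnlg. S100a9 had 3.37 and 2.15 CPM against 2.72, 6.67 and 1.87 CPM. Csf3r had 12.9 and 14.1 CPM against 18.6, 22.0 and 13.0 CPM, and Retnlg had a log2 fold change of -0.10. The 8 T and NK cell markers summed to 54.7 to 61.9 CPM against 32.6 to 70.0 CPM. By log2 fold change 1 was higher and 7 lower, with a median of -0.21, and -0.02 without mouse 3. Mouse 3 was below both controls for all 8. The 6 B and plasma cell markers summed to 35.1 to 44.6 CPM against 32.8 to 45.3 CPM. Of the 5 tested, 1 was higher and 4 lower, with a median of -0.26, and 0.03 without mouse 3. Mouse 3 was below both controls for 3 of these 5. With all mice, edgeR and DESeq2 called 0 genes of either list, and without mouse 3 edgeR called 1 B and plasma cell marker lower. The part of interferon response or of leukocyte number in the values of Zbp1, Gsdmd, Casp4 and Pycard was not tested.

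**Figure D3:**
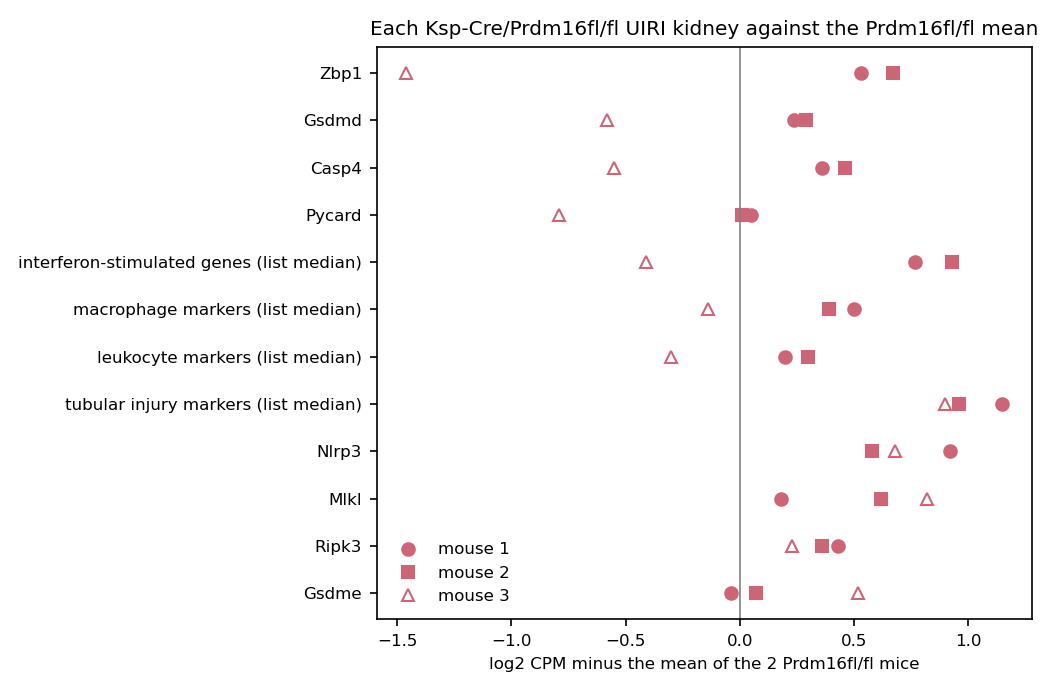
Log2 CPM of each Ksp-Cre/Prdm16fl/fl mouse minus the mean of the Prdm16fl/fl mice, for 8 of the cell death genes and for the medians of 4 marker lists. Mouse 3 (open triangle) is below 0 for Zbp1 (-1.46), Pycard (-0.79), Gsdmd (-0.58), Casp4 (-0.55) and for the interferon, macrophage and leukocyte lists, and above 0 for Nlrp3, Mlkl, Ripk3, Gsdme and the tubular injury list.

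Most tubular markers separated the genotypes. All 10 injury markers had log2 fold changes above 0, with a median of 1.14, and for 8 of them all 3 knockout mice were above both controls. The exceptions, Vcam1 and Cd44, had mouse 3 below both controls. edgeR called 1 of the 10 higher, Krt19 (1.97, adjusted p = 0.0412), DESeq2 called 7, and without mouse 3 edgeR called 9. The medians of knockout mice 1, 2 and 3 relative to the control mean were 1.15, 0.96 and 0.90 on the log2 scale. The summed level, 15300 and 15900 CPM against 32700, 33200 and 38400 CPM, was mostly Spp1, which encodes osteopontin, with 12300 and 13400 CPM against 27000, 28100 and 33800 CPM. Havcr1, which encodes the injury marker KIM-1, had 283 and 273 CPM against 683, 696 and 472 CPM (adjusted p = 0.0633 in edgeR's test).

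All 12 proximal tubule markers had log2 fold changes below 0, with a median of -1.31, and the groups were apart for 11, all but Slc27a2. edgeR called 1 of them lower, Miox (-2.23, adjusted p = 0.0412), DESeq2 called 6, and without mouse 3 edgeR called 10. The 12 markers of the loop, distal tubule and collecting duct summed to 5950 to 6070 CPM against 2350 to 4760 CPM, and the groups were apart for 9, all but Calb1, Aqp3 and Aqp2. edgeR called 0 of them, with 5 at an unadjusted p under 0.05, DESeq2 called 3 lower, and without mouse 3 edgeR called 6 lower. For Nlrp3, Ripk3 and Mlkl, as for 8 of the 10 injury markers, all knockout mice were above both controls, and the part of injured tubules in their values was not tested. The 6 endothelial markers had a median of -0.09, with 0 called by edgeR (1 at an unadjusted p under 0.05) or DESeq2. The 8 fibroblast markers had a median of 0.54, with 0 called by edgeR (5 at an unadjusted p under 0.05), 2 called higher by DESeq2, and 5 higher by edgeR without mouse 3. The 5 podocyte markers had a median of -0.64, with 1, Nphs1, called lower by edgeR, 3 by DESeq2, and 4 by edgeR without mouse 3. The 5 erythroid markers had a median of 3.93 and summed to 6.67 to 10.8 CPM against 40.5 to 151 CPM. edgeR called 0 of these, with all 5 at an unadjusted p under 0.05, whereas DESeq2, and edgeR without mouse 3, called 5 higher.

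The rest of the inflammasome pathway was read from 24 further names of sensors and regulators. Irgb10 was not among the genes listed, and the other 23 were all tested. Of these 15 had log2 fold changes above 0 and 8 below, and the median was 0.19. edgeR called 0 of them, with 4 at an unadjusted p under 0.05, and DESeq2 called 1, Nlrp6, lower. Without mouse 3 the median was 0.30, and edgeR called 5 higher and 1 lower. All 3 Ksp-Cre/Prdm16fl/fl mice were above both Prdm16fl/fl mice for 7 of the 23. Nlrp6, a sensor found in epithelia, had the smallest log2 fold change, -1.54 ± 0.25 (adjusted p = 0.0541), with 130 and 148 CPM against 47.3, 62.6 and 33.4 CPM. The groups were far apart for this gene, and it was called without mouse 3 (-1.34, adjusted p = 0.000856). Nlrp6 thus stood on the other side of 0 from Nlrp3. The largest log2 fold change was that of Naip1 (1.40, adjusted p = 0.425), which encodes a sensor subunit for bacterial secretion needles, and it rested on mouse 3, with 1.35 and 1.15 CPM against 1.82, 1.12 and 7.06 CPM. Without mouse 3 it was 0.24.

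Genes for what pyroptotic cells release, and for membrane rupture, showed 4 log2 fold changes above 0 and 3 below, with a median of 0.12. Neither edgeR nor DESeq2 called any of the 7, and 0 had an unadjusted p under 0.05 in edgeR's test. The largest was that of Il1rn, the interleukin-1 receptor antagonist, with 9.64 and 8.32 CPM against 21.7, 21.0 and 3.26 CPM (log2 fold change 0.77, adjusted p = 0.605, and 1.25 with adjusted p = 0.00113 without mouse 3, in edgeR's test). The smallest was that of Il18 (-0.28, adjusted p = 0.566), a cytokine matured by caspase-1, with 6.13 and 7.61 CPM against 4.71, 6.14 and 6.13 CPM. Il1b, chosen for display after its values were seen, had 10.6 and 14.9 CPM against 18.7, 18.4 and 4.86 CPM. Il1rn, Il1b and Il18bp, the last with 13.3 and 14.0 CPM against 14.9, 17.4 and 12.7 CPM, had the order of mice of Zbp1, Gsdmd and Casp4. That makes 3 of 7 genes against 8.52% of all genes, and Il18 was not among the 3.

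Upstream and around RIPK3, 32 other necroptosis genes were tested, among them death receptors, adaptors, ubiquitin ligases and kinases. Of these 26 had log2 fold changes above 0 and 6 below, with a median of 0.26. edgeR called 0, with 7 at an unadjusted p under 0.05, and DESeq2 called 0. Without mouse 3 the median was 0.23, and edgeR called 4 higher. In 15 of the 32 all Ksp-Cre/Prdm16fl/fl mice were above both Prdm16fl/fl mice, against 20.3% of all genes, and in 0 they were below both. The largest log2 fold change was that of Tlr4, the lipopolysaccharide receptor, with 11.5 and 15.1 CPM against 22.3, 19.0 and 24.1 CPM (0.71, adjusted p = 0.131). The smallest was that of Tnfsf10, the death ligand TRAIL, with 86.8 and 91.4 CPM against 75.6, 101 and 39.2 CPM (-0.31, adjusted p = 0.687). Ripk1 and Adar were picked after their values were seen. Ripk1, the kinase that recruits RIPK3 below death receptors, had 43.3 and 44.8 CPM against 53.0, 53.3 and 56.6 CPM (0.30, adjusted p = 0.206). Adar, whose RNA-editing product keeps Z-form RNA from ZBP1, had 57.9 and 54.9 CPM against 88.9, 91.4 and 68.0 CPM (0.55, adjusted p = 0.150, and adjusted p = 0.00251 without mouse 3). None of these 4 genes passed the test with all mice.

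Membrane repair by ESCRT-III, which removes gasdermin and MLKL pores, was represented by 12 genes, with 10 log2 fold changes above 0, 2 below and a median of 0.16. Both edgeR and DESeq2 called 0, and 3 had an unadjusted p under 0.05 in edgeR's test. Without mouse 3 the median was 0.10, and edgeR called 1 higher and 1 lower. Chmp4c had the largest (0.60, adjusted p = 0.233) and Chmp6 the smallest (-0.41, adjusted p = 0.202). Of the apoptosis machinery 23 of 24 genes were tested, 17 were on the higher and 6 on the lower side, and the median was 0.13. edgeR called 0, with 6 at an unadjusted p under 0.05, and DESeq2 called 1 higher and 2 lower. Without mouse 3 the median was 0.10, and edgeR called 3 in each direction. The BH3-only gene Bmf was the largest, with 30.9 and 29.2 CPM against 38.0, 49.3 and 93.8 CPM (1.0, adjusted p = 0.242). Cycs, which encodes cytochrome c of the respiratory chain and the apoptosome, was the smallest, with 563 and 578 CPM against 352, 319 and 363 CPM (-0.73, adjusted p = 0.0598). As for Nlrp6, the Cycs groups were well apart and the adjusted p was just over the threshold in edgeR's test. DESeq2 called both lower.

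Per exon length (FPKM), Casp8 was the most abundant of the 10 in every mouse, with a mean of 28.1 ± 2.71 (SD, n = 5 mice). Casp4 at 13.8 ± 4.24, Pycard at 13.1 ± 3.09 and Gsdmd at 12.8 ± 3.33 FPKM followed, and their order was not fixed, since Casp4 was above Pycard in 3 of 5 mice and Pycard above Gsdmd in 2. Gsdmd was above Casp1 in all 5. Next came Casp1 at 5.85 ± 1.09, Gsdme at 5.39 ± 0.924 and Zbp1 at 4.69 ± 2.32 FPKM, each above the next in 3 of 5 mice. Gsdme, with more CPM than Gsdmd, was lower per length because its exons sum to 11750 bases and those of Gsdmd to 2014. Zbp1 was above Ripk3 (3.48 ± 0.69 FPKM) in 4 mice, and Ripk3 above Mlkl (3.15 ± 0.891 FPKM) in 4. Nlrp3 was the lowest in every mouse, at 0.861 ± 0.29 FPKM.

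**Figure D4:**
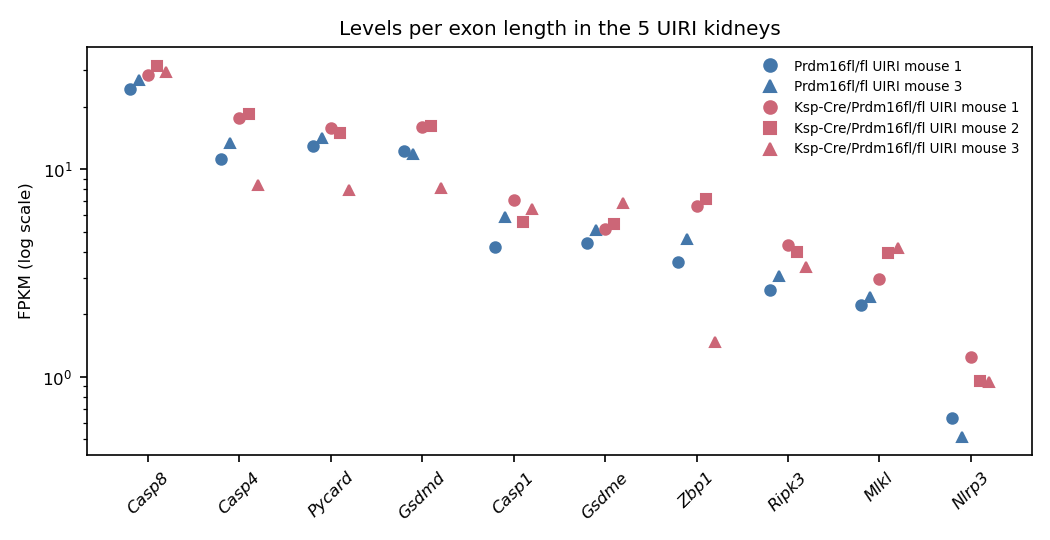
FPKM (log axis) of the 10 genes in each of the 5 UIRI kidneys, in order of their mean. Casp8 is highest and Nlrp3 lowest in every mouse, and Zbp1 spans from 1.47 to 7.15 FPKM.

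The genes nearest in pattern to a member were taken by the root mean square difference of centred log2 CPM over the 5 libraries, among 13995 genes whose mean log2 CPM was 1 or more. For the member with the largest log2 fold change in size of each role, these were Map3k21 (0.0368), Rimkla (0.0612) and Cldn7 (0.0630) for Nlrp3, and Fam83g (0.0451), Tlr13 (0.0614) and Ier2 (0.0763) for Mlkl. For Casp1 they were Nexn (0.0339), Svbp (0.0350) and S1pr4 (0.0615), and for Gsdme they were Oser1 (0.0259), Hoxa4 (0.0287) and Pfkfb1 (0.0306). None of these 12 genes passed the test. Map3k21 was at 24.1 and 21.8 CPM against 43.3, 33.3 and 37.8 CPM, so that the order of the mice was that of Nlrp3 at a higher level of counts. With 5 libraries, such likeness is a description of these mice.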

How the data were processed

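RNA-seq libraries of 5 kidneys, 2 Prdm16fl/fl and 3 Ksp-Cre/Prdm16fl/fl, were analysed, grouped by the genotype in the labels. The methods name kidney cortex, and the labels only kidney. The raw count of reads on each gene was deposited by the authors without scaling. The authors also deposited TPM and FPKM, which scale the count by exon length and library total, and both were recomputed here from the counts. The submitters' processing notes name CASAVA, featureCounts 2.0.1 and DESeq2 1.16.1. The aligner is not given in the sources used here. The notes name a human build (hg38) for these mouse samples, so positions are given as the files list them with their build unknown. Promoter sequences are RefSeq's, in GRCm38.p6.

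The lines of 5 genes were broken and were rejoined. Genes were filtered with filterByExpr, scaled with TMM and tested with the quasi-likelihood test of edgeR 4.0.16 (R 4.3.3). The adjusted p is the Benjamini-Hochberg value over 16394 genes, and a gene was called under 0.05. ± after a log2 fold change is its standard error. The 10 members were described in full. Of each pathway list, every called gene or else the tested genes with the largest and smallest log2 fold change and a mean log2 CPM of at least 0 were named, beside defining markers and the 3 nearest genes in pattern. One gene under this rule is not reported here. The members and the 19 pathway and marker lists were chosen with earlier results of these data known. Alternatives were DESeq2 1.42.0, other filters and scalings, the mouse number as a block, a minimum log2 fold change of 1 and leaving out each mouse. The test was tried on simulated counts first. With 5 mice there are only 10 ways to split them into 2 and 3, and 0.1 is the lowest one-sided p of an exact permutation test. Tables were handled with pandas 2.3.3 (Python 3.11.15), and figures drawn with matplotlib 3.10.9.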

Additional observations from a re-analysis of the deposited data

How the results depend on the processing

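Of 110 member values under 11 alternatives, 98 kept their direction and side of the threshold, 11 changed sign and 1 (Zbp1 without Ksp-Cre/Prdm16fl/fl mouse 3) passed the threshold. No member changed sign under another test, filter or scaling. Members called higher ranged from 0 to 1 when any 1 mouse was left out. Over all genes, the calls were 308 higher and 902 lower with DESeq2, 63 and 408 with no filter beyond 1 count in total, and 14 and 37 with library size scaling, which also moved the median of all genes from 0.04 to 0.15. Leaving out 1 mouse gave 0 to 1277 higher and 0 to 1782 lower calls, with calls only in the fit that omitted Ksp-Cre/Prdm16fl/fl mouse 3. Where a Prdm16fl/fl mouse was left out, the lone one was assumed to vary like the other group. With mouse number as a replicate block, 0 genes were called in either direction by edgeR (2061 at an unadjusted p under 0.05), and Gsdmd was at -0.17, Casp4 at -0.09 and Zbp1 at -0.43. Number 2 occurs only among the knockout mice, so in that fit the difference between the genotypes rested on mice 1 and 3 of each. With no block and without knockout mouse 2, Gsdmd was at -0.12, Casp4 at -0.03 and Zbp1 at -0.16. The sign changes under the block therefore cannot be told apart from the loss of that mouse. The deviations of same-numbered mice had r of 0.001 and -0.022 across genes. These r values are not separate checks, because the deviations of the Prdm16fl/fl mice mirror each other. Prdm16fl/fl mice 1 and 3 had r of 0.001 and -0.001 with knockout mouse 1, and 0.022 and -0.022 with knockout mouse 3. Whether same-numbered mice share more than a number was therefore not tested. Log2 fold changes without 1 mouse ran from -0.12 to 0.27 for Gsdmd, -0.34 to 0.03 for Pycard, -0.02 to 0.52 for Casp1, -0.03 to 0.41 for Casp4 and -0.16 to 0.60 for Zbp1. Of 242 list medians, 15 moved by more than the spread between mice. The cause of these differences was not tested. Nlrp3, with 32 to 85 counts, is the member most limited by depth.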
